A study of Homo sapiens with 12 samples.

Results

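TXNIP, the alpha-arrestins ARRDC4, ARRDC3 and ARRDC2, the glucose-responsive transcription factor MLXIP and the redox protein TXN were followed in 2 neuroblastoma cell lines treated with STM2457. These 6 genes, of 19923 in the count tables, were chosen by symbol, with earlier results of these libraries known. TXNIP was chosen because its RNA was lower with STM2457 in SK-N-BE2 and higher with it in NGP, so its values are described here and not tested. The other 5 genes were tested.

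SK-N-BE2 and NGP are established human neuroblastoma lines with amplified MYCN, both labelled wild type. STM2457 is a small-molecule inhibitor of METTL3, the methyltransferase responsible for N6-methyladenosine (m6A) in messenger RNA. Cultures of SK-N-BE2 received 12 µM STM2457 or DMSO, and NGP cells received 1 µM STM2457 or DMSO. Both lines were treated for 6 days, and each of the 4 groups had 3 replicates, giving 12 libraries of polyadenylated RNA. Each genetic background was represented by a single cell line, and the labels do not say whether replicates were separate cultures. The p-values therefore measure the spread between these libraries, which may be technical. Line, dose and sequencing run went together, since each line had its own dose and its own run, and they cannot be told apart in any comparison between the lines.

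Alpha-arrestins are adaptor proteins that bring ubiquitin ligases of the NEDD4 family to membrane proteins and so send transporters and receptors into the cell. TXNIP, the best known of them, limits glucose uptake by driving internalization of glucose transporters, and also binds and inhibits thioredoxin, the product of TXN. MLXIP, also called MondoA, pairs with MLX, enters the nucleus when glucose-6-phosphate accumulates, and switches on TXNIP and ARRDC4 through carbohydrate response elements in their promoters. Glucose uptake, redox state, protein levels and m6A were not measured in these libraries, so all values below are RNA levels.

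The libraries held between 47242379 and 58159937 counted reads. The adrenergic neuroblastoma markers HAND2, GATA3, ISL1, DBH and CHGA were each above 10 CPM (counts-per-million of the scaled library) in every group, while TH was above it in SK-N-BE2 and at 0.512 CPM in NGP with DMSO. Of 10 markers of leukocytes, endothelium, epithelium and fibroblasts, the summed level ran from 100 to 115 CPM with DMSO and from 171 to 185 CPM with STM2457 in SK-N-BE2. In NGP the same sum ran from 59.98 to 72.8 CPM with DMSO and from 266 to 291 CPM with STM2457. COL1A1, DCN and PDGFRB, genes of fibroblasts and other mesenchymal cells, made up the markers above 10 CPM. The leukocyte markers PTPRC and CD3E and the endothelial marker PECAM1 had 0 reads in NGP. CD68, also a leukocyte marker, stood at 6.22 CPM in NGP with DMSO and at 6.27 CPM with STM2457. CDH5, also endothelial, had 2 reads in NGP with DMSO and 59 with STM2457. In SK-N-BE2 none of the markers was at 0 reads. There PTPRC had 52 reads with DMSO and 184 with STM2457, and CDH5 had 1031 and 923. The summed level of the 10 markers was higher with STM2457 in both lines, and its part in the results below was not tested. In bulk RNA, fewer cells with a transcript and less of it per cell cannot be told apart. Replicate 1 of NGP DMSO stood apart from its group. The chi-square per degree of freedom of its counts was 97.1 against replicate 2 and 63.6 against replicate 3, while replicates 2 and 3 gave 11.4 between them. For the 6 genes, NGP responses are therefore also given without that library.

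The promoters of TXNIP and ARRDC4 are shown because both genes are described as MLXIP targets, and because their RNA was lower with STM2457 together in SK-N-BE2 but went opposite ways in NGP. Each line holds the 250 bases before the RefSeq transcription start (GRCh38.p14), at chr1:145996580-145996829 on the minus strand for TXNIP and chr15:97960453-97960702 on the plus strand for ARRDC4. Capitals mark the boxes CACGAG in TXNIP and, for ARRDC4, the box CACGTG, together with the words CCAAT in either promoter and its reverse complement, read there as ATTGG.
TXNIP: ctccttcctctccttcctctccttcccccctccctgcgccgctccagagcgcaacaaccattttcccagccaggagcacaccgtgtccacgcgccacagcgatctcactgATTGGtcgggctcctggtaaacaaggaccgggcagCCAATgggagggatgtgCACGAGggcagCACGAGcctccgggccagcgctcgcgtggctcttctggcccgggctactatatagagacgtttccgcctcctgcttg
ARRDC4: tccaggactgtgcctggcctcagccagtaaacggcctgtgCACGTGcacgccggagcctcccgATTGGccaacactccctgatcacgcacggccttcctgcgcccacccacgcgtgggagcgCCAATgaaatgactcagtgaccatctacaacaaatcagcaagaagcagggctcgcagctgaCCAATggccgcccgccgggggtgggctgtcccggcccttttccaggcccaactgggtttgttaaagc
A carbohydrate response element is built from 2 boxes of the type CACGTG set 5 bases apart. The TXNIP promoter holds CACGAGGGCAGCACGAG, starting 88 bases before the start site. An exact pair of CACGTG boxes 5 bases apart occurred in promoter windows of 2 of 27305 genes, none of them among the 6 studied here. A looser pair, searched on both strands as 2 copies of CACGNG with any 5 bases between them, occurred in windows of 20 genes (0.0732%). Among the 6 genes studied, TXNIP alone had it in its windows. ARRDC4 had a single CACGTG, 210 bases before its start, a motif found in windows of 8.77% of genes. CCAAT, the box bound by NF-Y, lies 140 and 105 bases before the TXNIP start and 187, 128 and 67 bases before the ARRDC4 start. It was found in windows of 39.7% of genes, and at least 1 match also lay in windows of ARRDC3, MLXIP and ARRDC2. RefSeq windows were found for all 6 genes, and the motifs were chosen after these sequences had been seen. A match is a string of letters, and binding was not measured.

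TXNIP (chromosome 1, 145992435 to 145996579, minus strand) was the gene on which the lines differed in direction. In SK-N-BE2 it measured 197, 247 and 214 CPM with DMSO and 79.2, 87.5 and 83.9 CPM with STM2457. In NGP it measured 11.4, 24.5 and 13.0 CPM with DMSO and 37.2, 36.4 and 42.9 CPM with STM2457. All 3 treated libraries lay below all controls in SK-N-BE2 and above all controls in NGP. The mean went from 219 ± 25.2 to 83.5 ± 4.15 CPM in SK-N-BE2 (SD, n = 3), a 2.63-fold lower level and a log2 fold change of -1.43 (SE 0.10, 95% interval -1.64 to -1.22). In NGP it went from 16.3 ± 7.17 to 38.8 ± 3.55 CPM, a 2.38-fold higher level and a log2 fold change of 1.23 (SE 0.27, 95% interval 0.61 to 1.84). Across all tested genes, 4.27% had a lower log2 fold change than TXNIP in SK-N-BE2 and 95.6% had a lower one in NGP. Without the NGP DMSO replicate that stood apart, the NGP log2 fold change was 1.02. NGP DMSO replicate 2 had the highest control level, and without it the value was 1.65.

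The 2 responses brought the lines closer together. With DMSO, SK-N-BE2 held 13.5 times the TXNIP level of NGP, and with STM2457 it held 2.15 times that level. The 3 treated SK-N-BE2 libraries still lay above all treated NGP libraries. The SK-N-BE2 response minus the NGP response was -2.64 on the log2 scale (SE 0.30, 95% interval -3.29 to -2.005). Genes that were called lower in SK-N-BE2 and higher in NGP made up 2.25% of the 12952 genes tested in both lines (291 genes). As TXNIP was chosen for this pattern, that share serves as description only.

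**Figure D1:**
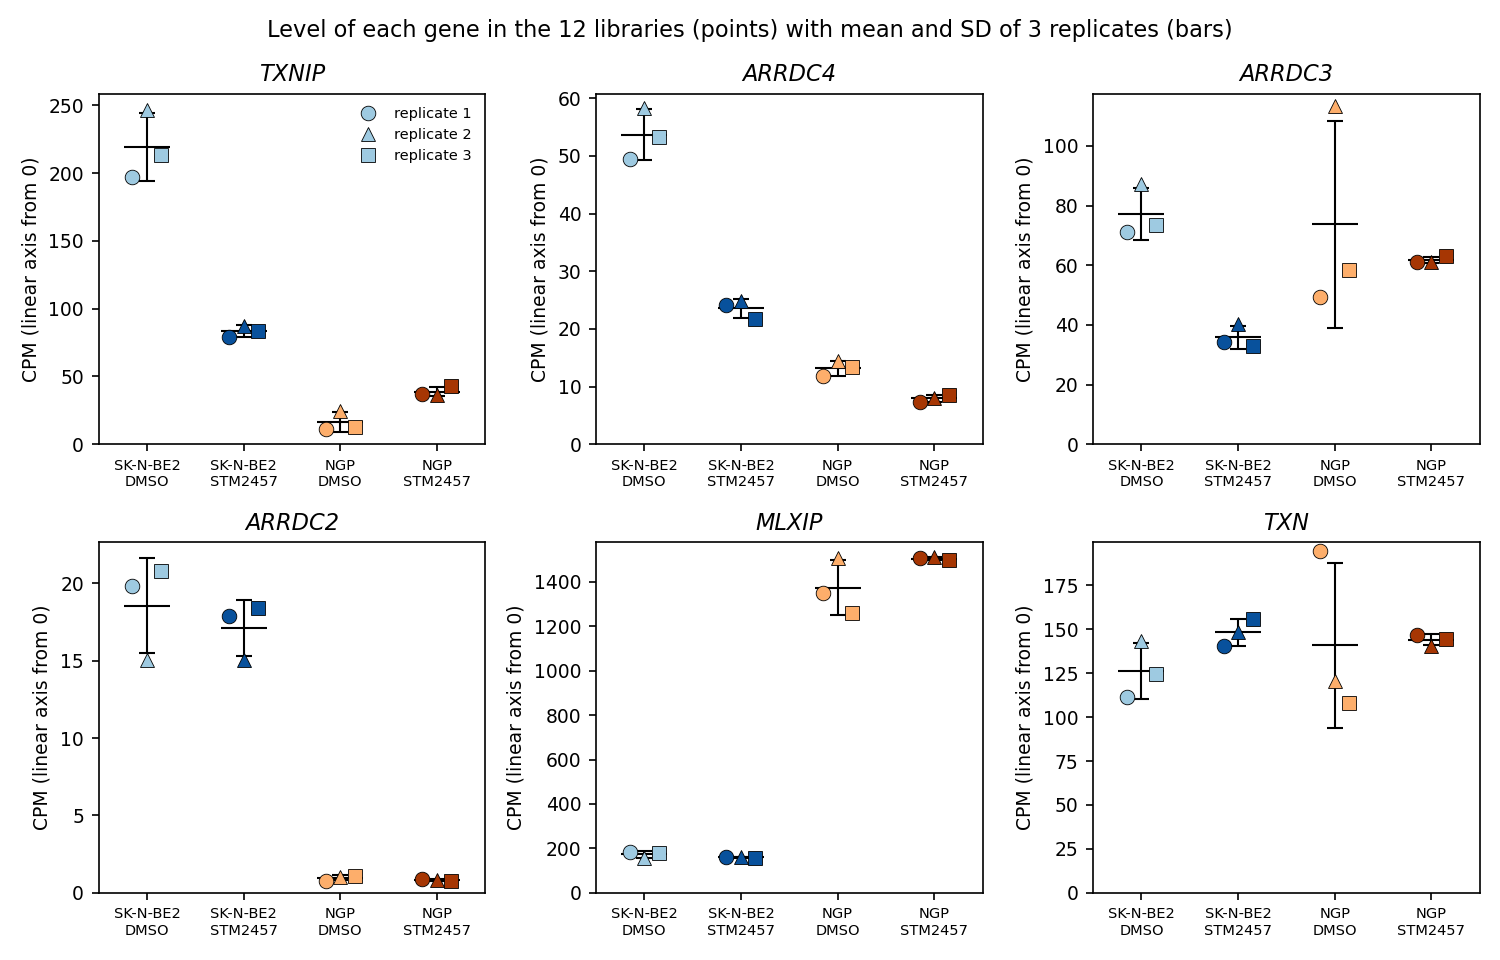
Level of each of the 6 genes in the 12 libraries, in CPM on a linear axis from 0, by line and treatment, with the mean and SD of 3 replicates. TXNIP goes from a mean of 219 to 83.5 CPM in SK-N-BE2 and from 16.3 to 38.8 CPM in NGP, while MLXIP stands at 1262 CPM or more in every NGP library.

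ARRDC4 (chromosome 15, 97960703 to 97973833, plus strand), the alpha-arrestin closest to TXNIP in its known regulation, fell in both lines. In SK-N-BE2 it measured 49.4, 58.3 and 53.3 CPM with DMSO and 24.1, 24.8 and 21.7 CPM with STM2457. In NGP it measured 11.8, 14.4 and 13.3 CPM with DMSO and 7.39, 8.05 and 8.60 CPM with STM2457. The treated libraries lay below all controls in each line. For SK-N-BE2 the log2 fold change was -1.23 (SE 0.10, edgeR quasi-likelihood adjusted p 3.44e-07) and the NGP value -0.74 (SE 0.14, edgeR adjusted p 0.00315). Without NGP DMSO replicate 1 the NGP value was -0.82. ARRDC4 thus moved with TXNIP in SK-N-BE2 and against it in NGP. The ARRDC4 response was lower in SK-N-BE2 than in NGP by a log2 difference of -0.47 (SE 0.16, edgeR adjusted p 0.0346). Omitting single libraries ended that call in 7 of 12 fits (highest adjusted p 0.0947) and so did dropping the filter on low counts (0.0580). The libraries concerned were DMSO replicates 2 and 3 and STM2457 replicates 1 and 3 of SK-N-BE2, and DMSO replicate 3 and STM2457 replicates 2 and 3 of NGP.

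The ratio of TXNIP to ARRDC4 shows the split within each library, with both levels divided by exon length (CPM per kilobase of exon, RPKM). In SK-N-BE2 the ratio was 4.51, 4.78 and 4.52 with DMSO and 3.70, 3.97 and 4.36 with STM2457. In NGP it was 1.09, 1.93 and 1.10 with DMSO and 5.67, 5.10 and 5.63 with STM2457. The treated NGP libraries lay above all other libraries, and NGP DMSO lay below all others. As TXNIP was chosen for its pattern, this ratio is description only.

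ARRDC3 (chromosome 5, 91368631 to 91383317, minus strand), an alpha-arrestin known for its part in adrenergic receptor and metabolic signalling, fell in SK-N-BE2. There it measured 71.1, 87.3 and 73.3 CPM with DMSO and 34.3, 40.2 and 33.03 CPM with STM2457, and the groups did not overlap. Its log2 fold change was -1.15 (SE 0.11, edgeR quasi-likelihood adjusted p 1.39e-06). In NGP it measured 49.4, 113 and 58.3 CPM with DMSO and 61.2, 61.1 and 63.0 CPM with STM2457. The NGP controls spread on both sides of the treated libraries, with replicate 2 far above. The NGP log2 fold change was -0.28 (SE 0.27, 95% interval -0.91 to 0.34, edgeR adjusted p 0.441), so a change of this gene in NGP was not called. The value was -0.50 without NGP DMSO replicate 1 and turned to 0.17 without replicate 2. NGP DMSO replicate 2 was also the highest NGP control for TXNIP. The difference between the responses of the lines was -0.85 (SE 0.32, edgeR adjusted p 0.0565). It was called without NGP DMSO replicate 2, at -1.31 (edgeR adjusted p 5.37e-05). It was also called by upper-quartile scaling (adjusted p 0.0414) and by DESeq2 (adjusted p 0.0304). An antisense gene on the other strand shares 2.91% of the ARRDC3 exon length, and counting did not use strand.

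ARRDC2 (chromosome 19, 18001132 to 18014102, plus strand), another alpha-arrestin, was not called in either line. In SK-N-BE2 it measured 19.8, 15.04 and 20.8 CPM with DMSO and 17.9, 15.1 and 18.4 CPM with STM2457. NGP libraries held only 39, 53 and 56 reads with DMSO and 41, 38 and 40 reads with STM2457, at most 1.09 CPM. The groups overlapped in both lines. Its log2 fold change was -0.15 in SK-N-BE2 (95% interval -0.43 to 0.13, edgeR adjusted p 0.337) and -0.25 in NGP (95% interval -0.91 to 0.40, edgeR adjusted p 0.512). Without NGP DMSO replicate 1 the NGP value was -0.39 (edgeR adjusted p 0.316). At this depth the NGP interval is wide, and a change within it was not detectable. An unnamed gene on the other strand shares 9.53% of its exon length.

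**Figure D2:**
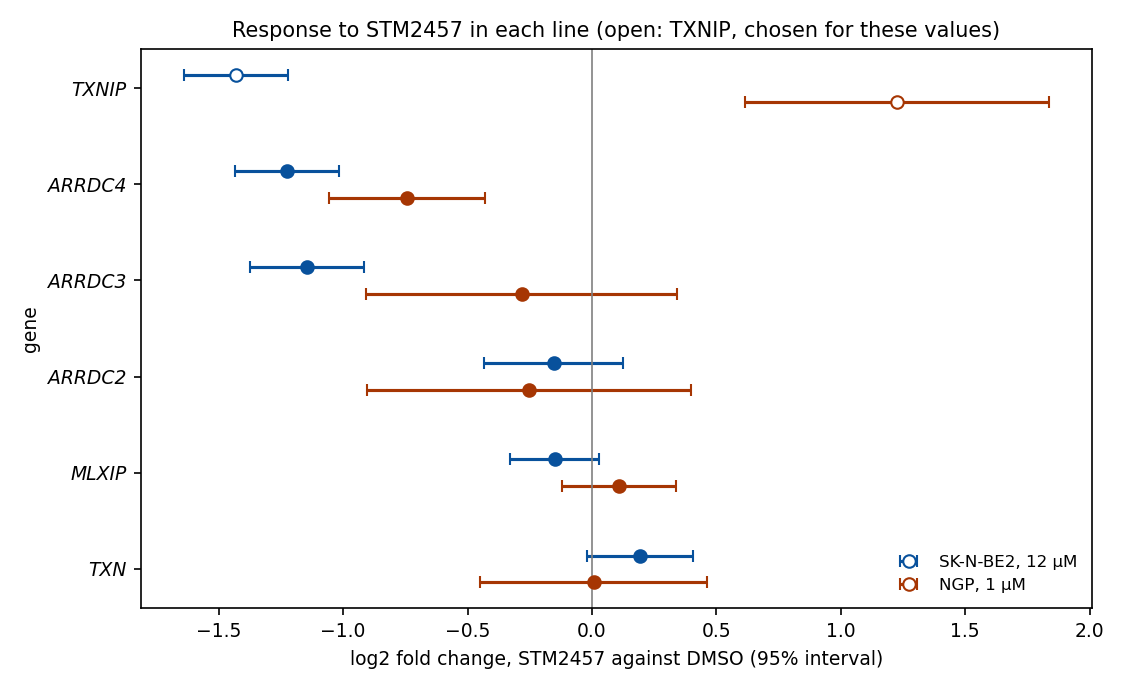
Log2 fold change of each gene with STM2457 against DMSO in SK-N-BE2 (12 µM) and NGP (1 µM), with 95% intervals, 3 libraries per group. TXNIP, drawn open because it was chosen for these values, lies at -1.43 and 1.23, and ARRDC4 lies below 0 in both lines at -1.23 and -0.74.

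In SK-N-BE2 calls were made for 2 of the 5 genes, ARRDC4 and ARRDC3, both lower with STM2457. Among all 14013 genes of that fit, 54.7% were called, 27.8% lower and 26.9% higher, and 62.2% had groups that did not overlap. In NGP 1 of the 5 was called, ARRDC4, lower with STM2457. Among all 13610 genes tested there, 41.7% were called, 22.2% lower, and 54.7% had groups that did not overlap. Being called lower in both lines, as ARRDC4 was, held for 10.8% of the genes tested in both. For the difference between responses 1 of the 5 was called, against 30.9% of 14731 genes. The 5 genes were thus called no more often than genes at large in these 3 comparisons.

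MLXIP (chromosome 12, 122078756 to 122147344, plus strand) differed in level between the lines and was not called in either response. In SK-N-BE2 it measured 185, 156 and 178 CPM with DMSO and 162, 161 and 157 CPM with STM2457. In NGP it measured 1349, 1506 and 1262 CPM with DMSO and 1506, 1511 and 1498 CPM with STM2457. Treated and control libraries overlapped within each line, while every NGP library lay above every SK-N-BE2 library. The response was -0.15 in SK-N-BE2 (SE 0.08, 95% interval -0.33 to 0.03, edgeR adjusted p 0.143) and 0.11 in NGP (SE 0.10, 95% interval -0.12 to 0.34, edgeR adjusted p 0.423). Without NGP DMSO replicate 1 the NGP value was 0.09. The SK-N-BE2 value became -0.21 and was called without DMSO replicate 2 (edgeR adjusted p 0.0209). The difference between the 2 responses was -0.25 (edgeR adjusted p 0.165). With DMSO the level in NGP was 7.94-fold that in SK-N-BE2, a log2 difference of -2.99 for SK-N-BE2 minus NGP (SE 0.10, edgeR adjusted p 4.32e-12). With STM2457 it was 9.41-fold. TXNIP and ARRDC4 thus had their lower level in the line with more MLXIP RNA.

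Genes next to MLXIP showed the same difference between the lines. From CAMKK2 to RILPL2 (chromosome 12, 121237675 to 123436717), all 38 tested genes in an unbroken run were called higher in NGP DMSO, with a median log2 difference of -2.91 for SK-N-BE2 minus NGP. The values ran from -4.92 to -1.11, so MLXIP at -2.99 lay near the middle. Of the other 730 tested genes of chromosome 12, 42.2% were called higher in NGP, with a median of -0.15, and 35.4% of all tested genes were. Outside the run, P2RX7 and P2RX4 on the left had differences of 1.13 and -0.31, and SNRNP35 and RILPL1 on the right 1.30 and 1.39. Among the 10 nearest tested neighbours, all 10 were called higher in NGP for MLXIP. For TXNIP the median of the 10 neighbours was 0.23 while TXNIP itself stood at 3.75, and for ARRDC4 the neighbours' median was 0.35 against 2.03. In the response to STM2457, 36 of these genes were tested in SK-N-BE2, with 9 called higher, 10 lower and a median of -0.10. The 38 genes had a median of -0.07 in NGP, with 6 called higher and 9 lower. These calls stand near the shares of genes at large, 54.7% in the first line and 41.7% in the second, and nothing particular to the run is read from them. The run was delimited after its values were seen, and DNA copy number was not measured.

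**Figure D3:**
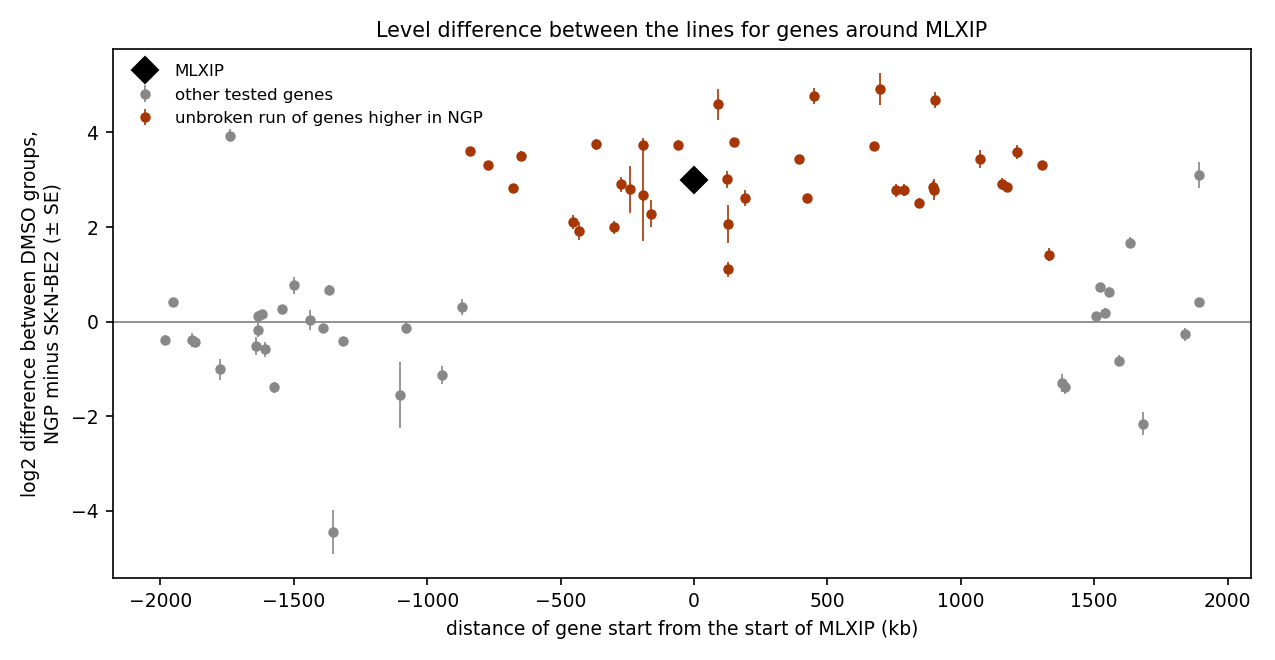
Log2 difference between the DMSO groups, NGP minus SK-N-BE2, with SE, for tested genes by the distance of their start from that of MLXIP in kilobases. The 38 genes of the unbroken run, in red, all lie above 0, and other genes, in grey, lie on both sides of 0.

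TXN (chromosome 9, 110243810 to 110256507, minus strand), the thioredoxin bound by TXNIP, was not called in either line. In SK-N-BE2 it measured 111, 143 and 124 CPM with DMSO and 140, 148 and 156 CPM with STM2457. In NGP it measured 195, 120 and 108 CPM with DMSO and 147, 141 and 145 CPM with STM2457. Treated and control libraries overlapped in each line. The log2 fold change was 0.19 in SK-N-BE2 (SE 0.10, 95% interval -0.02 to 0.41, edgeR adjusted p 0.114) and 0.01 in NGP (SE 0.20, 95% interval -0.45 to 0.46, edgeR adjusted p 0.982). NGP DMSO replicate 1, the library that stood apart, held the highest TXN level. Without it the NGP value was 0.31 and was called (edgeR adjusted p 0.00414), and without DMSO replicate 2 the SK-N-BE2 value was 0.30 and was called (edgeR adjusted p 0.00987). The difference between responses was 0.20 (edgeR adjusted p 0.571). TXN did not differ beyond the spread between the DMSO groups (log2 difference -0.16, SE 0.17, edgeR adjusted p 0.417).

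TXNIP RNA was also set against the RNA of its partner TXN. On the RPKM scale the ratio of TXNIP to TXN was 0.497, 0.483 and 0.482 in SK-N-BE2 DMSO and 0.158, 0.165 and 0.151 with STM2457. In NGP it was 0.0164, 0.0571 and 0.0338 with DMSO and 0.0710, 0.0726 and 0.0831 with STM2457. TXNIP RNA was thus below TXN RNA in every library. The groups of a line did not overlap, and the order of the 4 groups was the same as for TXNIP. As TXNIP was chosen for its pattern and TXN was called in neither line, the ratio describes that pattern again and is no separate result.

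Between the DMSO groups, also collected at 6 days, 3 of the 5 tested genes differed, ARRDC4 and ARRDC2 higher in SK-N-BE2 and MLXIP higher in NGP. In the same comparison 71.1% of 14731 genes were called, 35.7% higher in SK-N-BE2 and 35.4% higher in NGP, and 68.9% had groups that did not overlap. ARRDC4 was 4.08-fold higher in SK-N-BE2 DMSO (log2 difference 2.03, SE 0.11, edgeR adjusted p 9.36e-10). ARRDC2 was 19.2-fold higher (log2 difference 4.26, SE 0.18, edgeR adjusted p 5.94e-11). ARRDC3 did not differ beyond the spread (0.07, SE 0.22, edgeR adjusted p 0.800), although it was 0.53 higher in SK-N-BE2 and called without NGP DMSO replicate 2 (edgeR adjusted p 0.00152). These contrasts share their DMSO libraries with the responses and are not independent of them.

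On the RPKM scale, which allows levels of different genes to be compared, TXNIP was the most abundant alpha-arrestin in SK-N-BE2 and ARRDC3 in NGP. The summed level of TXNIP and ARRDC1 to ARRDC4 was 96.8 ± 8.57 RPKM in SK-N-BE2 DMSO and 44.03 ± 1.05 with STM2457 (SD, n = 3). In NGP the sum was 26.1 ± 8.94 RPKM with DMSO and 28.2 ± 1.29 with STM2457, and the NGP groups overlapped. TXNIP made up 62.8 ± 1.62% of that sum in SK-N-BE2 DMSO and 52.6 ± 1.40% with STM2457. In NGP its share was 17.0 ± 1.54% with DMSO and 38.2 ± 1.71% with STM2457. The TXNIP share was thus lower with STM2457 in SK-N-BE2 and higher with it in NGP, which describes the pattern for which the gene was chosen. ARRDC3 held 55.1 ± 6.72% in NGP DMSO and 44.01 ± 1.21% with STM2457, and 16.0% and 16.3% in the corresponding SK-N-BE2 groups. ARRDC4 held 13.7% and 13.2% in SK-N-BE2, and in NGP it was at 13.0% with DMSO and 6.99% with STM2457. ARRDC5 had 0 reads in the 12 libraries. A limit of 3 reads stands for up to 0.0642 CPM in a library, for counting error only. It is too narrow, since both reads of a fragment can be counted.

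**Figure D4:**
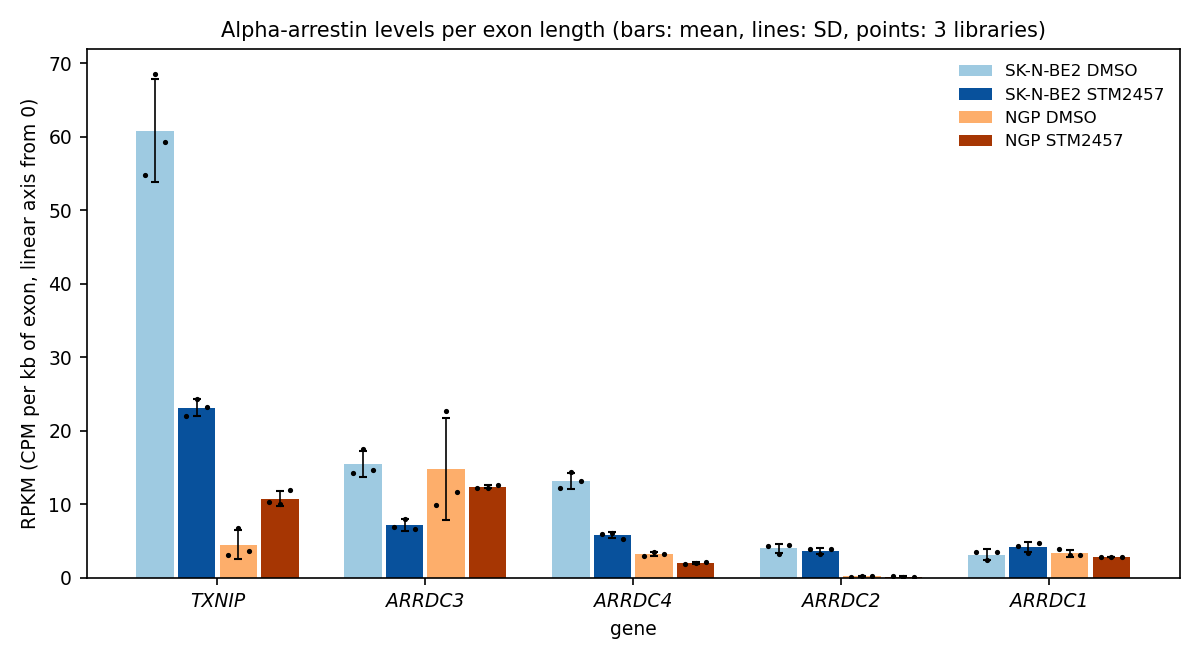
Mean level of TXNIP and 4 ARRDC genes in RPKM, on a linear axis from 0, in the 4 groups, with SD and the 3 libraries as points. TXNIP is the tallest bar in SK-N-BE2, at 60.9 RPKM with DMSO and 23.2 with STM2457, and ARRDC3 in NGP, at 14.8 and 12.4 RPKM.

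The remaining genes of the pathway were taken from 6 lists and read one by one. Each list's calls stand against the share of all tested genes called, 54.7% for SK-N-BE2 and 41.7% for NGP, and with 3 to 14 genes a list, nothing particular to a list is read from them. Among the other arrestins, 3 of 4 were tested, with 1 call in each line, higher for SK-N-BE2 (median 0.35) but lower for NGP (median -0.26), below the 54.7% and 41.7% of genes at large. ARRDC1 was not called in either line, although dropping the filter on low counts gave a call for SK-N-BE2 at 0.36 (edgeR adjusted p 0.0467). ARRB1, a beta-arrestin of receptor signalling, rose in SK-N-BE2 (0.35 ± 0.09 on the log2 scale, SE, edgeR adjusted p 0.00367). ARRB2, its relative, fell in NGP (-0.41, SE 0.13, edgeR adjusted p 0.0321), a call lost in 4 of 6 fits without a library (adjusted p up to 0.116). It was kept without DMSO replicate 2 and without DMSO replicate 1, where the value was -0.26.

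In the thioredoxin system, the set of reductases, peroxiredoxins and related proteins that work with TXN, 14 of 14 genes were tested. In SK-N-BE2 6 were called higher and 2 lower with a median log2 fold change of 0.12, and in NGP 5 higher and 2 lower with a median of 0.18. The 8 and 7 calls stand near the background of 54.7% and 41.7%, and medians over all genes were -0.02 and -0.03. GLRX, a glutaredoxin, rose from 4.79 to 15.5 CPM in SK-N-BE2 (1.66 ± 0.14 on the log2 scale, SE, edgeR adjusted p 6.55e-07) and from 12.9 to 30.5 CPM in NGP (1.22, SE 0.16, edgeR adjusted p 0.000522). PRDX1, a cytosolic peroxiredoxin, rose in SK-N-BE2 by 0.73 and in NGP by 1.60 on the log2 scale. PRDX5 fell in SK-N-BE2 (-1.05, edgeR adjusted p 1.27e-06) and in NGP (-0.93, edgeR adjusted p 0.00879, and -0.61 without DMSO replicate 1). TXNRD1, the reductase that recharges TXN, rose by 0.42 in SK-N-BE2 and by 0.43 in NGP, the NGP call being lost without STM2457 replicate 1 or 3 (edgeR adjusted p up to 0.0755). TXNL1 fell by 0.37 in SK-N-BE2 (edgeR adjusted p 0.00244) and by 0.99 in NGP (SE 0.10, edgeR adjusted p 0.000149). PRDX3, the mitochondrial peroxiredoxin, rose by 0.25 in SK-N-BE2 (edgeR adjusted p 0.0175) and by 0.79 in NGP (edgeR adjusted p 0.000332). The former call did not hold on omitting DMSO replicate 3, STM2457 replicate 2 or STM2457 replicate 3 (edgeR adjusted p up to 0.0796). GLRX, PRDX1, PRDX3, PRDX5, TXNRD1 and TXNL1 were thus each called in the same direction in both lines. Of all genes tested in both lines, 10.8% were called lower in both, and the share called higher in both was not computed. Nothing particular to the thioredoxin system is read from these shared directions.

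Of the Mondo partners and genes of glucose entry, 6 of 7 were tested, with 1 called higher and 3 lower in SK-N-BE2 (median -0.20) and 1 higher and 2 lower in NGP (median -0.40). These 4 and 3 calls of 6 lie above the 54.7% and 41.7% of all genes by less than 1 gene. MLX, the partner that MLXIP needs to bind DNA, was called in neither line, at -0.10 for SK-N-BE2 (edgeR adjusted p 0.277) and 0.12 for NGP (edgeR adjusted p 0.362). MLXIPL, the sister factor ChREBP, had 28 reads in SK-N-BE2 DMSO and 4 with STM2457 over 3 libraries. In NGP it had 47 reads with DMSO (26, 6 and 15 in the 3 libraries) and 0 with STM2457. Against a limit of 3 reads over the group this is 14.8-fold lower. That figure is no firm bound, since both reads of a fragment can be counted. MLXIPL had too few reads to be tested within a line. HK2, a hexokinase that makes glucose-6-phosphate, fell in SK-N-BE2 (-0.77 ± 0.08 on the log2 scale, SE, edgeR adjusted p 4.52e-06) and in NGP (-1.14, SE 0.15, edgeR adjusted p 0.000555). HK1 rose in SK-N-BE2 (0.73, edgeR adjusted p 7.24e-06) and in NGP (0.34, edgeR adjusted p 0.0247), the latter call being lost on omitting any NGP library but DMSO replicate 1 (adjusted p up to 0.0972). Of the glucose transporters, SLC2A3 fell in SK-N-BE2 (-0.53, edgeR adjusted p 0.00221, but -0.49 and 0.0695 in a joint fit of the 12 libraries) and SLC2A1 in NGP (-0.77, edgeR adjusted p 0.000929).

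Carbohydrate response element targets other than TXNIP and ARRDC4 included 4 genes with enough reads, and PKLR and G6PC had too few. In SK-N-BE2 all 4 were called, 3 higher and 1 lower (median 0.72), and in NGP 3 were, 2 higher and 1 lower (median 0.30), against 54.7% and 41.7% over all genes. KLF10, a transcription factor, fell from 105 to 26.7 CPM in SK-N-BE2 (-2.02 ± 0.10 on the log2 scale, SE, edgeR adjusted p 8.25e-09). In NGP KLF10 fell by 0.43 (edgeR adjusted p 0.0208), and here too only the fit without DMSO replicate 1 kept the call (adjusted p up to 0.0918 in the others). The lipid synthesis genes went the other way. ACACA rose in SK-N-BE2 (1.08, edgeR adjusted p 3.32e-05), FASN rose in SK-N-BE2 (0.88, edgeR adjusted p 0.000201) and NGP (0.48, edgeR adjusted p 0.0149), and ELOVL6 rose by 0.56 in SK-N-BE2 (edgeR adjusted p 3.84e-05) and by 1.47 in NGP (edgeR adjusted p 4.52e-05). These lipid genes also answer to other factors.

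Of the NEDD4 family ubiquitin ligases, which alpha-arrestins bind through PPxY motifs, 8 of 9 were tested, of which SK-N-BE2 had 3 calls (2 higher, median -0.04) and NGP 1 (lower, median -0.11), shares below the 54.7% and 41.7% of all genes. NEDD4 fell from 25.9 to 15.4 CPM in SK-N-BE2 (-0.78 ± 0.10 on the log2 scale, SE, edgeR adjusted p 2.52e-05) and from 29.1 to 7.07 CPM in NGP (-2.07, SE 0.24, edgeR adjusted p 0.000308). NEDD4L and HECW2 rose in SK-N-BE2, by 0.75 and 0.52. No other member was called in either line, though NEDD4L was called lower in NGP without DMSO replicate 1 (-0.31, edgeR adjusted p 0.00371). AMPK, the energy sensor that marks TXNIP for degradation, has 6 subunit genes in the list, all tested, with 1 called higher and 2 lower in SK-N-BE2 (median -0.04) and 2 lower in NGP (median -0.32), again below 54.7% and 41.7%. Both beta subunits fell in both lines, with log2 fold changes of -0.96 and -1.44 for PRKAB2 and -0.56 and -0.57 for PRKAB1 in SK-N-BE2 and NGP. Of all genes tested in both lines, 10.8% were called lower in both, and nothing particular to AMPK is read from these 2 genes. PRKAG2 rose in SK-N-BE2 (0.62, edgeR adjusted p 4.98e-05) and was called lower in NGP only without DMSO replicate 1 (-0.33, edgeR adjusted p 0.0373), and the catalytic subunits were not called.

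**Figure D5:**
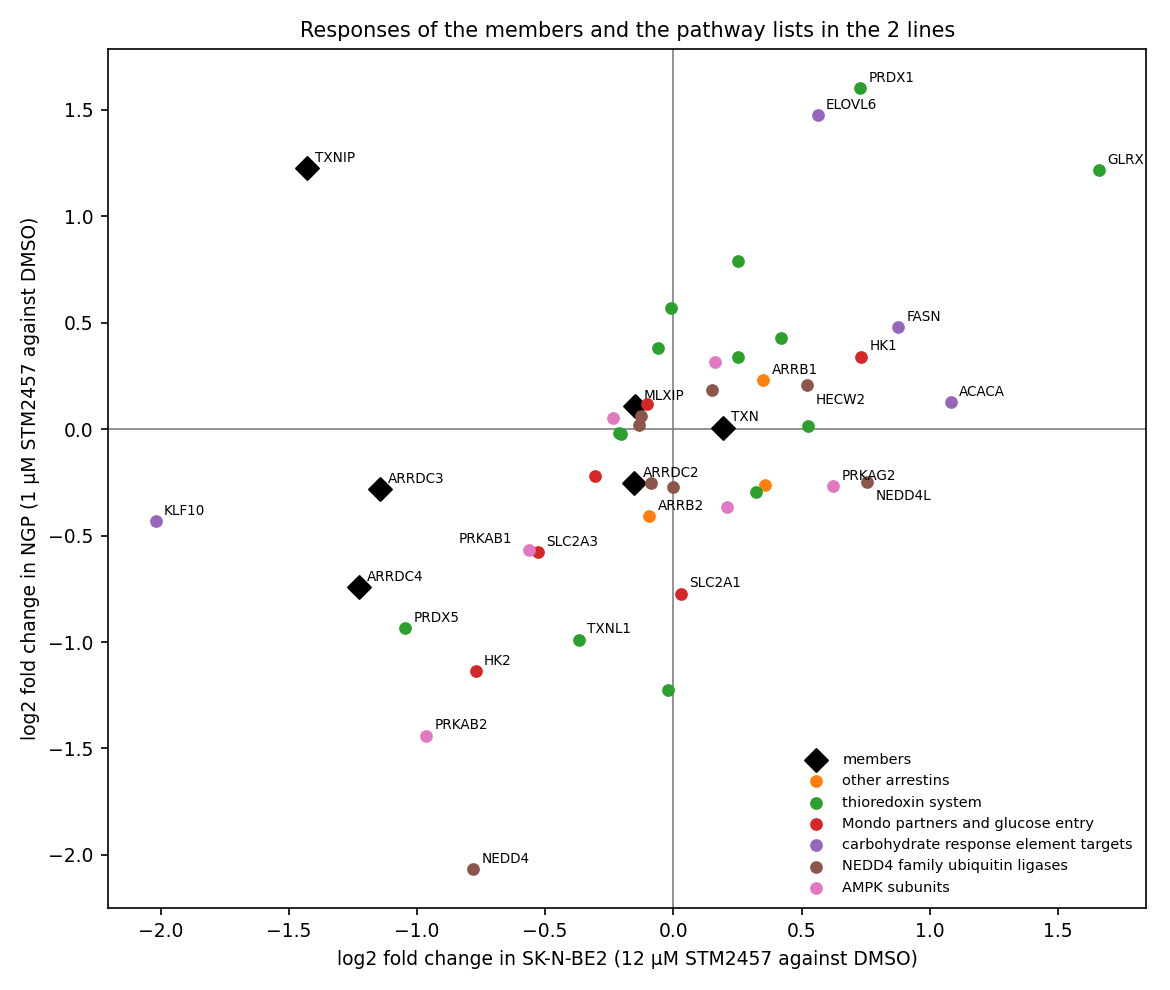
Log2 fold change with STM2457 in NGP against that in SK-N-BE2 for the 6 genes (black) and the tested genes of 6 pathway lists (coloured). TXNIP, at -1.43 and 1.23, is the gene farthest into the upper left, while PRDX1, GLRX and ELOVL6 lie at the upper right and NEDD4, PRKAB2 and HK2 at the lower left.

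Genes with the TXNIP pattern were sought by Pearson correlation of log2 CPM over the 12 libraries among 12647 genes. These libraries share 2 lines and 4 groups, so the values mostly order group levels and are descriptive. RET, a receptor tyrosine kinase of the sympathetic lineage, was most alike (r = 0.994), at 787 and 399 CPM in SK-N-BE2 and 91.6 and 190 CPM in NGP, with DMSO and STM2457 in that order. SUPT7L, a subunit of a transcription coactivator, followed (r = 0.988), with a narrow range from 103 CPM in NGP DMSO to 143 CPM in SK-N-BE2 DMSO. The next were ACACB, a mitochondrial acetyl-CoA carboxylase (r = 0.984), ZFP36, which binds AU-rich messenger RNA (r = 0.983), and SEC22B, a vesicle fusion protein (r = 0.981). With DESeq2 size factors 4 of these 5 remained among the top 5, and by Spearman rank 1 did. Among the genes studied here, ARRDC2 reached 0.855 (rank 1050 of 12647), ARRDC4 0.824 (rank 1495), ARRDC3 0.05 and TXN -0.21. MLXIP ran opposite at -0.84 (rank 11241). Many other genes were thus as alike or as opposite. ARRDC2 and MLXIP were called in neither response but differed between the DMSO groups.

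The m6A writer favours GGACT within its target sites, and the density of that word was counted in the canonical GENCODE 44 transcript of each gene. TXNIP had 0.344 per kilobase, ARRDC4 0.492 and ARRDC3 0.472, against a median of 0.931 over 14391 transcripts. ARRDC2 had 2.00 and MLXIP 1.07 per kilobase, and the short TXN transcript had none. TXNIP, ARRDC4 and ARRDC3, the 3 genes lower with STM2457 in SK-N-BE2, thus lay below the median transcript, on only 1, 2 and 2 words. Their transcripts were 43.8%, 43.4% and 37.2% G and C, against a median of 49.0%. TXN, which was not called lower, was at 36.8%. The part of base content in these densities was not tested, and a word is not a measured m6A site.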

How the data were processed

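RNA was measured in 12 libraries, whose titles give line, treatment and replicate. Polyadenylated RNA was turned into cDNA libraries (SMART kit), per the labels' protocols. The authors ran featureCounts 2.0.5, per the file headers, in paired mode, without strand and without counting read pairs as 1, on protein-coding genes of GENCODE 33 (GRCh38). Deposited values are raw whole-number read counts. The submitters' processing notes also name FastQC 0.11.5, Trimmomatic 0.36, HISAT2 2.1.0 and Subread 1.5.3. Since both reads of a fragment can be counted, counting limits are too narrow.

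Each line's 6 libraries were fitted with edgeR 4.0.16 in R 4.3.3 (filterByExpr with minimum count 10, TMM, quasi-likelihood test, Benjamini-Hochberg adjustment over all genes tested, threshold 0.05). Differences between lines came from 4 group means over 12 libraries. CPM used TMM factors of all libraries, RPKM divided CPM by the deposited exon length, and changes are relative because no spike-in was used. Genes, lists and tests were chosen with earlier results of these data known. The naming rule took the 6 genes, up to 3 called genes per list and line with the largest change, genes whose role is described, and the 5 genes most like TXNIP by Pearson r of log2 CPM (prior count 2, mean of at least 1 CPM). Alternatives were other scaling factors, filters, DESeq2 1.42.0, halved counts, a joint fit, a replicate block and leaving out each library. The fits were first tested on simulated counts. The adrenergic markers are given in part, and the rest is not reported here.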

Additional observations from a re-analysis of the deposited data

Results flagged for a closer look

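The responses of these genes differed between the lines, given as the SK-N-BE2 log2 fold change minus the NGP one. For TXNIP the value was -2.64, with every treated library below its controls in SK-N-BE2 and above them in NGP, and it was not tested because the gene was chosen for it. The other genes were called at an edgeR quasi-likelihood adjusted p under 0.05 for the difference itself, as were 30.9% of 14731 genes. The list genes below were named for large called changes within a line of these same libraries. That choice favours a call for the difference, so their values are descriptive. For them the difference was not followed under the alternative settings or with libraries left out. ARRDC4 stood at -0.47, a call that several single-library omissions ended.

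Responses lower in SK-N-BE2 than in NGP were also found for KLF10 (-1.57), ELOVL6 (-0.90) and PRDX1 (-0.86). Responses higher in SK-N-BE2 were found for NEDD4 (1.30), NEDD4L (1.01), ACACA (0.96), PRKAG2 (0.90), SLC2A1 (0.81), TXNL1 (0.63), PRKAB2 (0.49) and HK1 (0.40). In NEDD4, TXNL1 and PRKAB2 both lines fell, and NGP fell further. As stated above, the line cannot be told apart from its dose and its run.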

How the results depend on the processing

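No called value changed sign. Uncalled values of the 6 genes did so when 1 library was left out. Without NGP DMSO replicate 1 they were the TXN difference between responses (-0.12) and the differences between the DMSO groups of TXN (0.17) and ARRDC3 (-0.13). ARRDC3 in NGP turned to 0.17 without DMSO replicate 2, and its DMSO difference also turned without NGP DMSO replicate 3 (-0.07) or SK-N-BE2 DMSO replicate 2 (-0.01). TXN in NGP turned to -0.09, -0.16 and -0.01 without DMSO replicate 2, DMSO replicate 3 and STM2457 replicate 1, and the ARRDC2 difference between responses to -0.04 without SK-N-BE2 DMSO replicate 2. Of the list genes, SLC2A1 in SK-N-BE2 and ACACA and HECW2 in NGP turned sign, uncalled, under at least 1 alternative. TXNIP kept its direction in each line under each alternative. When a library was left out, the SK-N-BE2 value stayed between -1.503 and -1.33 and the NGP value between 1.02 and 1.65. Its difference between responses then ran from -3.07 to -2.46 and its difference between the DMSO groups from 3.57 to 4.18, the larger sizes without NGP DMSO replicate 2 and the smaller ones without replicate 1. Of the 5 tested genes, leaving out a library gave 2 to 4 calls in SK-N-BE2 (4 without DMSO replicate 2), 1 to 2 in NGP (2 without DMSO replicate 1) and 0 to 2 for the difference between responses. That last count was 2 with upper-quartile factors and with DESeq2, and 0 without a filter, against 1. The cause was not tested.

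Same-numbered libraries did not vary together (correlations of their deviations from -0.06 to 0.09 in SK-N-BE2 and -0.07 to 0.02 in NGP), so the numbers were not taken as pairs. With a replicate block the TXNIP value was 1.31 in NGP, and the number of the 5 genes called for the difference between responses was 2, ARRDC3 being added (-0.95, edgeR adjusted p 0.0285). It ended the NGP calls of ARRB2 (edgeR adjusted p 0.0507) and HK1 (0.0510). The block left 5026 called genes in NGP against 5671. Over the single genes, 966 values were counted as unchanged, 15 gained a call and 30 lost it, among them SLC2A3 in SK-N-BE2 in the joint fit (-0.49, edgeR adjusted p 0.0695). The 966 also include the correlations of the genes most like TXNIP, which have no threshold and were not assessed by 1. ARRDC2 was not tested in NGP under the filter of a mean of 1 CPM. Depth limits ARRDC2 in NGP and MLXIPL, which had few reads.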

Other observations

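ARRDC3 was also set against ARRDC4 on the RPKM scale, since both fell in SK-N-BE2. There the ratio of ARRDC3 to ARRDC4 was 1.17, 1.22 and 1.12 with DMSO and 1.16, 1.32 and 1.24 with STM2457, and the groups overlapped. In NGP it was 3.42, 6.44 and 3.56 with DMSO and 6.75, 6.19 and 5.97 with STM2457, and replicate 2 of DMSO lay within the treated range. NGP DMSO replicate 2 thus held more ARRDC3 and TXNIP RNA than the other NGP controls, while its ARRDC4 level was 14.4 CPM against 11.8 and 13.3 CPM in the others.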
